A study of Homo sapiens with 45 samples.

Results

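HCC1937 is an epithelial line from a primary breast carcinoma, and its 3 libraries were set against 18 libraries of 6 other lines of the basal A class, 3 of each. They are 3 of the 45 RNA-seq libraries of a series of 15 lines. The HCC1937 columns of the deposited count table were chosen by name, and the class of each line is the published one, which the sample labels do not carry. Each group is 1 line with no treatment named, grown with fetal bovine serum: HCC1937 in RPMI 1640, and of the 6 others HCC1143, HCC1187, HCC1806 and HCC70 in RPMI 1640, BT-20 in EMEM with insulin and MDA-MB-468 in L-15. Every line is labelled wild-type and stands for 1 tumour, so a difference between HCC1937 and another line holds for these lines and not for a genotype. Total RNA was depleted of ribosomal RNA before sequencing. The labels tie replicate numbers to sequencing runs, which HCC1937 shares with 5 of the 6 lines and not with HCC1143, but they do not say whether replicates were separate cultures, so p-values over libraries measure a spread that may be technical.

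Basal A lines keep an epithelial form with keratins of the basal layer of the breast duct, while basal B lines are more mesenchymal. HCC1937 is known for a mutation of BRCA1, whose protein directs repair of broken DNA by homologous recombination. Chromosome band 10q23, where several of the lowest genes lay, holds genes of phosphate, sulfate and glutamate metabolism.

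The 3 HCC1937 libraries held 6685074, 7202097 and 11342442 counts, within the range of 4587650 to 14653677 of the 21 libraries. Their log2 values correlated with each other at 0.982 to 0.989 across genes, which are not independent replicates. The labelled epithelial type matched the markers: EPCAM, an epithelial adhesion protein, stood at 365, 365 and 392 CPM (each gene's counts scaled to a library of the same fixed size) in HCC1937, and the E-cadherin gene CDH1 at 282, 321 and 363 CPM. Markers of other cell types were few, and of 8 blood cell markers PTPRC and CSF1R alone had enough counts to be tested, at 1.18, 1.63 and 0.669 and at 0.147, 0.271 and 0.585 CPM in HCC1937. All 9 tested fibroblast markers had a negative fitted difference, 4 of them passing the test, and of 6 tested endothelial markers KDR was lower and PECAM1 and CDH5 higher. The adhesion gene PECAM1 had 15.2, 16.3 and 13.5 CPM in HCC1937 against 0.445, 1.29 and 4.04 CPM as the lowest, median and highest of the 18 other libraries; in bulk RNA, many cells with little of a transcript and few with much cannot be told apart. In the correlation of log2 CPM over genes, BT-20 and MDA-MB-468 lay nearest HCC1937 (0.893 and 0.892) and HCC1187 farthest (0.838).

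Of 17772 genes tested, 2488 were higher in HCC1937 than in the mean of the 6 lines (14%) and 1865 were lower (10.5%), 4353 in either direction (24.5%), by edgeR's quasi-likelihood test at an adjusted p of 0.05 or less and a log2 difference of at least 1. All CPM values of single libraries are scaled by the trimmed mean of M values (TMM), and the mean of the 6 lines is taken on the log scale, so a line near 0 pulls it down. For 28 genes called higher, the HCC1937 mean did not exceed the median of the 6 line means. A stricter description asked for no overlap: all 3 HCC1937 libraries lay above all 18 others for 844 genes (4.75%) and below them for 530 (2.98%). Of the 17772 genes, 17493 passed the filter on low counts through the 6 lines alone. The rest needed counts of HCC1937 to be tested, so they could add to the higher and above-range totals but hardly to the lower ones. Among the 4 other lines grown in RPMI 1640, 2550 genes were higher in HCC1937 and 2090 lower, and without HCC1143, so that each line had 1 library in each of the same 3 runs, 2440 were higher and 1722 lower. These tests use the spread between libraries of a line. With each line summed to 1 unit, so that the 6 lines' own differences are the error, edgeR called 0 genes in either direction (354 higher and 202 lower at an unadjusted p under 0.05), and DESeq2 called 26 higher (0.0986%) and 24 lower (0.0911%) of 26358 genes.

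Among abundant protein-coding genes whose HCC1937 libraries did not overlap the others, the largest rises were of a membrane trafficking gene, a metalloproteinase inhibitor and an HLA gene. TIMP3, an inhibitor of matrix metalloproteinases held in the extracellular matrix, reached 426, 433 and 527 CPM in the HCC1937 libraries, against a lowest of 0, a median of 1.27 and a highest of 121 CPM in the 18 others. The difference was 7.99 ± 0.12 log2 units (SE, adjusted p = 6.32e-26), and HCC1806, with a line mean of 110.2 CPM, was the next line. MAL, a proteolipid of apical membrane transport, had 19.9, 18.4 and 22 CPM in HCC1937 and at most 0.296 CPM in any other library, most of which had no count. Like the HLA gene, HLA-C, it thus passed the filter on low counts only through HCC1937. SPOCK2, a secreted proteoglycan, stood at 220.2, 207 and 218 CPM against 0, 2.83 and 12.2 CPM as the lowest, median and highest elsewhere, a difference of 6.58 ± 0.11 (adjusted p = 5.19e-25). Neither MAL nor SPOCK2 came near the HCC1937 level in another line, and TIMP3 did so in HCC1806 alone.

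Several receptors and surface proteins followed. The receptor tyrosine kinase AXL had 74.2, 86.7 and 93.8 CPM in HCC1937, against 0, 1.31 and 13.6 CPM as the lowest, median and highest of the 18 others, higher by 6.22 ± 0.19 (adjusted p = 1.13e-19). The oxytocin receptor gene OXTR stood at 189, 227 and 204 CPM, against 0.339, 3.33 and 54.7 CPM. BT-20 held the highest of these other values of OXTR, with a line mean of 50.9 CPM. TM4SF18, a tetraspan membrane protein, had 114, 127 and 117 CPM, and HCC1143 alone of the 6 lines came near it, with a mean of 51.7 CPM. Also among the leading 12 were CSRP3, a muscle LIM protein (26.6, 25.6 and 21.5 CPM), the neuropeptide gene ADCYAP1 (24.6, 26.1 and 22.8 CPM), BTBD16 (29.3, 26.5 and 19.6 CPM) and the gluconeogenic phosphatase gene FBP1 (30.03, 41 and 43.3 CPM), and none of the 18 other libraries passed 22.7 CPM for any of them. All 24 genes chosen by this rule, in both directions, had an adjusted p of 3.22e-08 or less. Since the rule takes called genes with the largest differences, small values follow from the choice and are no separate support.

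**Figure D1:**
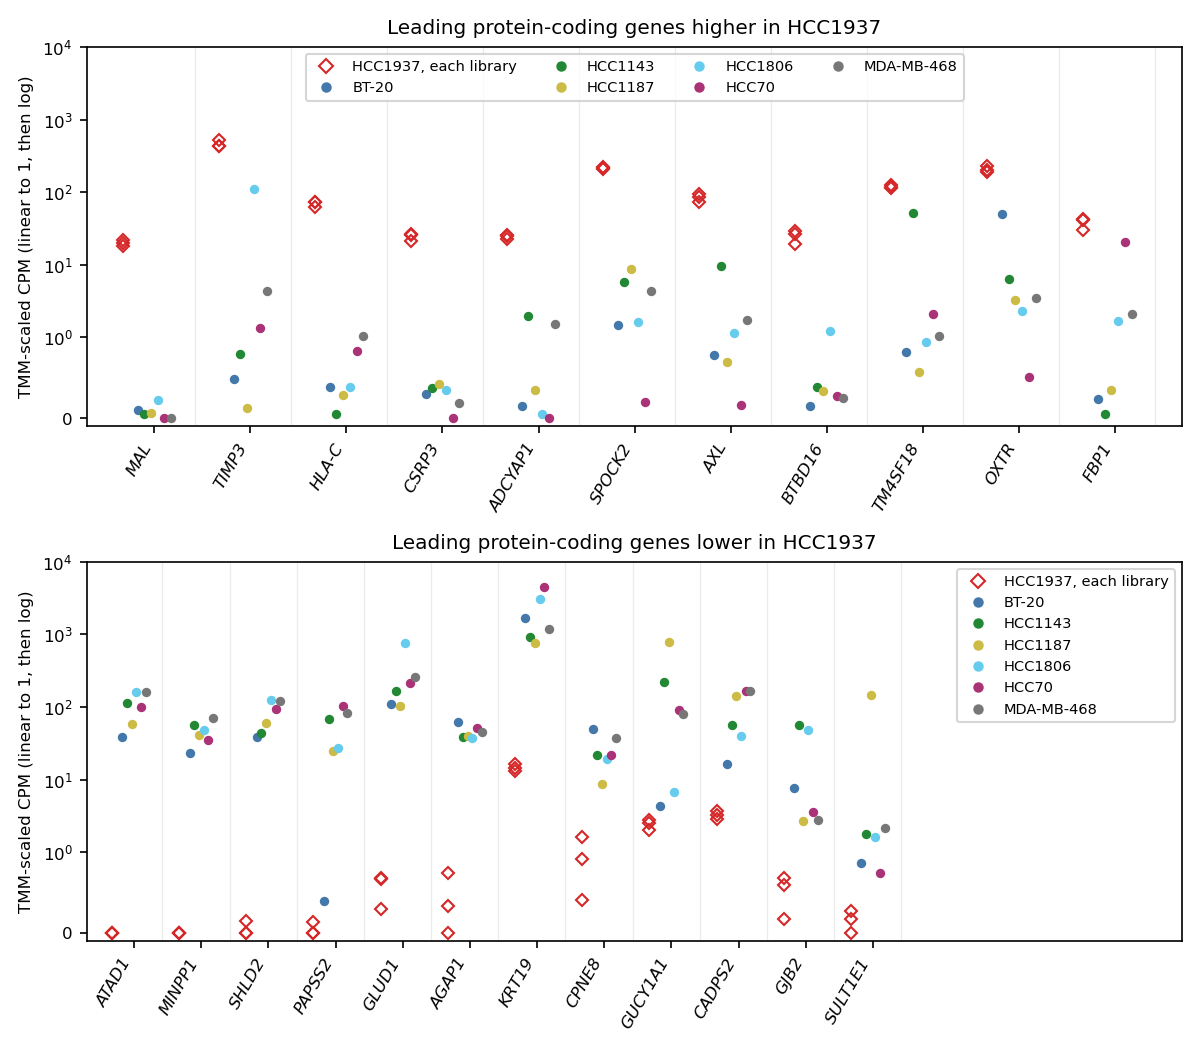
Leading genes higher (above) and lower (below) in HCC1937, in TMM-scaled CPM on an axis that is linear up to 1 and logarithmic above. Open red diamonds are the 3 HCC1937 libraries and filled circles the mean of 3 libraries of each other line. For TIMP3 the diamonds sit between 426 and 527 CPM, and for KRT19 between 13 and 16.6 CPM, under all 6 lines.

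In the other direction, 5 of the 12 leading genes lay in 1 stretch of band 10q23 and are described with that region. KRT19, a keratin of simple epithelium, had 16.6, 14.4 and 13 CPM in HCC1937 against 598, 1523 and 4779 CPM as the lowest, median and highest of the 18 others. The difference was -6.81 ± 0.19 log2 units (adjusted p = 1.89e-20), while the partner keratins of luminal cells, KRT8 and KRT18, were higher in HCC1937 by 1.09 ± 0.08 and 1.34 ± 0.08. AGAP1, a GTPase-activating protein of endosomal traffic, had 0.736, 0 and 0.334 CPM against 33.6, 42.7 and 72.8 CPM, and the 6 lines were close to each other. GUCY1A1, a subunit of the nitric oxide receptor guanylate cyclase, had 2.5, 2.03 and 2.76 CPM against 3.15, 89 and 853 CPM, a range that ran from BT-20 at the low end to HCC1187 at the high end. CADPS2, a factor of dense-core vesicle release, had 3.24, 3.66 and 2.84 CPM against a median of 83.6 CPM, and the copine gene CPNE8 1.62, 0.406 and 0.92 CPM against a median of 21.5 CPM. The connexin gene GJB2 and the estrogen sulfotransferase gene SULT1E1 did not exceed 0.677 and 0.271 CPM in HCC1937, but their medians elsewhere were also low, at 4.92 and 1.5 CPM. AGAP1 and KRT19 thus differed from every line by a wide margin, whereas SULT1E1 rested on HCC1187, with a line mean of 145 CPM, and small values in the other 5 lines.

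Band 10q23 held a stretch of genes with almost no counts in HCC1937. A gene was called silent where the 3 HCC1937 libraries, summed to 25229613 counts, gave at most 0.5 CPM and at least 5 of the 6 lines had 2 CPM or more, without TMM scaling. This held for 32 of 10916 genes expressed in at least 5 lines (0.293%), 23 of them protein-coding. The longest run of neighbours was SHLD2, NUTM2A-AS1, MINPP1, PAPSS2 and ATAD1 (GRCh38 chr10:87094161-87841343, 747183 bases). ATAD1, an ATPase that extracts misplaced proteins from the outer mitochondrial membrane, had 0 counts in HCC1937 and 39.7 to 173 CPM in the 6 lines, at least 878-fold lower than their median when 3 counts over the summed libraries are taken as the floor. MINPP1, a phosphatase of inositol polyphosphates, had 0 counts as well, at least 363-fold lower than the median of 43.2 CPM. SHLD2, a subunit of the shieldin complex that protects DNA ends from resection, had 1 count, against 39.8 to 127 CPM in the 6 lines, a ratio of 1758 (exact Poisson 95% interval 316 to 69454, counting error only). PAPSS2, which makes the sulfate donor PAPS, had 1 count, but BT-20 was also low, at 0.397 CPM, while the 5 other lines had 25.2 to 87.7 CPM. The antisense transcript NUTM2A-AS1 had 0 counts against 4.37 to 10.5 CPM, values that may include reads of genes on the other strand.

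The genes on either side bounded this stretch. GLUD1, glutamate dehydrogenase, the mitochondrial enzyme that turns glutamate into the TCA cycle intermediate alpha-ketoglutarate, overlaps the start of SHLD2 and had 15 counts in HCC1937 (0.595 CPM, just over the limit for silent) against 104 to 704 CPM in the 6 lines, with the highest level in HCC1806. The near-identical retrogene GLUD2 on chromosome X had 0 counts in HCC1937 and at most 6.56 CPM elsewhere, and reads of this pair could not be told apart. Upstream, SNCG and ADIRF had 1 and 0 counts in HCC1937, but HCC1187 was also at or under 0.0579 CPM for both. Farther out, counts were present on both sides: BMPR1A, a bone morphogenetic protein receptor, had 974 counts (38.6 CPM, inside the range of 35.7 to 147 CPM of the 6 lines), and the renalase gene RNLS had 71 counts (2.81 CPM, against 2.78 to 7.99 CPM). Across the 1.34 Mb between BMPR1A and RNLS, HCC1937 had 24 counts over 14 genes, 9 of them outside GLUD1, while the 6 lines had 4696 to 28578.

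Beyond RNLS, 5 genes of the band were higher in HCC1937: the death receptor gene FAS, the actin gene ACTA2 and the interferon-induced IFIT1, IFIT2 and IFIT3, of which FAS had 25.3, 28.2 and 27.5 CPM against 1.55, 4.97 and 41.9 CPM as the lowest, median and highest of the 18 others (1.90 ± 0.13, adjusted p = 9.41e-13). Against the lines of the same medium and runs, ACTA2 (0.91), IFIT1 (0.33) and IFIT3 (0.45) were under the fold threshold, and ACTA2 passed the filter on low counts only through HCC1937. In the whole list of 26 genes of the band, 19 were tested, 5 higher and 7 lower, and the 5 below the range of all other libraries were those of the silent stretch and GLUD1 without the antisense transcript.

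**Figure D2:**
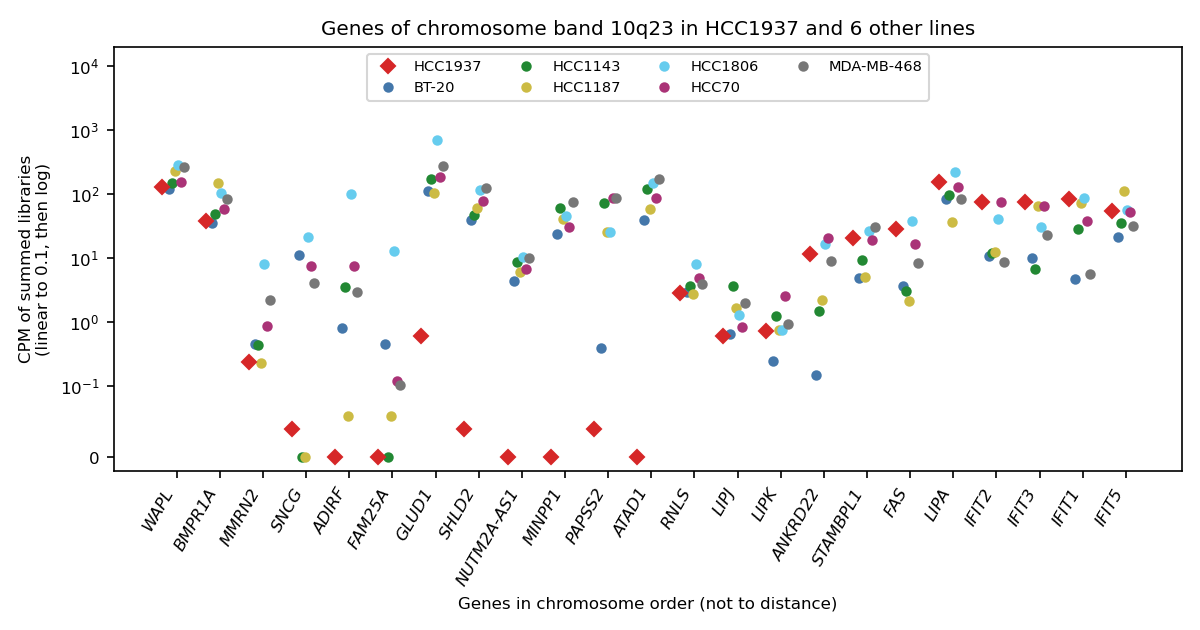
CPM of summed libraries for genes of band 10q23 with at least 2 CPM in a line, in chromosome order (x axis, not to distance), on an axis that is linear up to 0.1 CPM and logarithmic above. Red diamonds are HCC1937 and circles the 6 other lines. From GLUD1 to ATAD1 the diamonds lie at 0.595 CPM or less, and WAPL, BMPR1A and RNLS on either side lie near the other lines.

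The remaining silent genes were scattered. AGAP1 had 9 counts, 120-fold lower than the median of the 6 lines (interval 63.3 to 263). GSTP1, a glutathione transferase often silenced in breast cancer, had 2 counts in HCC1937 and 0.0496 CPM in BT-20, against a median of 220 CPM over the 6 lines, so it marked both lines. MKRN3, an imprinted ubiquitin ligase gene on chromosome 15, had 8 counts against a median of 15.9 CPM, RHOBTB1 9 counts against 11.5 CPM, and ATF7IP2 8 counts against 10.5 CPM. SLC1A1, a glutamate transporter, had 8 counts, but HCC1806 was at 0.0418 CPM too. Short runs were found at AL031282.2 and SLC35E2A on chromosome 1, NAP1L4 and CARS on chromosome 11 and CXorf57 and RNF128 on chromosome X. In those of chromosomes 1 and 11 the medians of the 6 lines did not exceed 5.25 CPM, and the lowest line had 0 CPM of CARS. RNF128, an E3 ubiquitin ligase gene, had 11 counts against a median of 9.86 CPM. Just inside the limit lay TCF4 with 0.476 CPM, and just outside NR3C2 with 0.515, VSNL1 with 0.555 and GLUD1 with 0.595 CPM. CBS, which condenses homocysteine with serine, was tested as lower, with 0, 0 and 0.0836 CPM against 1.33, 6.15 and 14.4 CPM as the lowest, median and highest elsewhere.

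Interferon-stimulated genes, which cells switch on after interferon or sensing of foreign nucleic acid, were higher in HCC1937 for 22 of 35 tested and lower for none, with a median difference of 1.59 log2 units beside 0.03 over all genes tested. Not overlapping with any other library were DDX60, HERC5, HERC6, BST2 and OASL. DDX60, a helicase of antiviral defence, had 505, 488 and 422 CPM in HCC1937 against 11, 43 and 126 CPM as the lowest, median and highest of the 18 others, a difference of 3.46 ± 0.13 (adjusted p = 5.23e-18). HERC5, the ligase that attaches the ubiquitin-like ISG15, had 66.4, 72.7 and 69.5 CPM against 0.717, 17.4 and 41.8 CPM, and its neighbour on chromosome 4, HERC6, 105, 104 and 109 CPM against 8.2, 20.3 and 61.9 CPM. BST2, which tethers budding virus to the cell surface, had 266, 268 and 192 CPM, the lowest of which was just above the highest value of 189 CPM in HCC70. OASL, a relative of the oligoadenylate synthetases, had 44.6, 35.1 and 31 CPM against a median of 1.41 and a highest of 29.2 CPM. The lines ordered differently for other members: the GTPase gene MX2 had 84, 76 and 73.1 CPM in HCC1937 and a line mean of 101 CPM in HCC1806, against 1.76 CPM as the median of the 18, and its partner MX1 had 297, 249 and 223 CPM in HCC1937 and a line mean of 676 CPM in HCC1187.

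Line by line, the HCC1937 mean was higher for 34 of the 35 genes against BT-20, 33 against MDA-MB-468, 31 against HCC1143, 27 against HCC1806, 21 against HCC1187 and 19 against HCC70. HCC1187 and HCC70 thus had interferon-stimulated genes at levels like those of HCC1937 for many members. Against HCC1187, HCC1806 and HCC70 alone, the lines grown in RPMI 1640 and sequenced in the same runs, 14 of the 22 kept their call, as did 77.7% of all genes called higher. Of the 8 that lost it, IFI44, with 176, 195 and 153 CPM in HCC1937, turned to a fitted -0.33 log2 units, and the others came to 0.25 for MX1, 0.33 for IFIT1, 0.45 for IFIT3, 0.59 for OAS1, 0.80 for OAS2, 0.17 for OAS3 and 0.81 for IFI44L. Of 22 tested components of the pathway itself, 3 were higher, the adaptor genes MAVS and TMEM173 and the DNA sensor gene CGAS, and 2 were lower, the receptor chain IFNAR2 and the feedback inhibitor SOCS3, of which CGAS (0.69) and IFNAR2 (-0.99) came under the fold threshold among those lines. MAVS had 203, 203 and 228 CPM against 24, 81.5 and 199.96 CPM (1.37 ± 0.07, adjusted p = 8.77e-15), and SOCS3 4.56, 4.6 and 4.76 CPM against 9.6, 20.9 and 51.1 CPM (-2.24 ± 0.14, adjusted p = 4.7e-13).

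Promoters of 4 members that lay apart from all other libraries are shown as examples of the list, from 250 bases before to 50 after the start of the gene in RefSeq (GRCh38.p14), with each match to the core of the interferon response element, GAAA with any 2 bases and GAAA again, on either strand in capitals. DDX60 lies at chr4:168318703-168319002 on the minus strand, HERC5 at chr4:88456869-88457168 and HERC6 at chr4:88378602-88378901 on the plus strand, and BST2 at chr19:17405581-17405880 on the minus strand.
DDX60: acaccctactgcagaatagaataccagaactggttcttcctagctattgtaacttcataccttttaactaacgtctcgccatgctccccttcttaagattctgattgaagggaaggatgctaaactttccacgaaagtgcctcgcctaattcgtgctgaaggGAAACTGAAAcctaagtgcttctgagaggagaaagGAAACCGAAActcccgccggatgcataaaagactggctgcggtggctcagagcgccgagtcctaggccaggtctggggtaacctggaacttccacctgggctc
BST2: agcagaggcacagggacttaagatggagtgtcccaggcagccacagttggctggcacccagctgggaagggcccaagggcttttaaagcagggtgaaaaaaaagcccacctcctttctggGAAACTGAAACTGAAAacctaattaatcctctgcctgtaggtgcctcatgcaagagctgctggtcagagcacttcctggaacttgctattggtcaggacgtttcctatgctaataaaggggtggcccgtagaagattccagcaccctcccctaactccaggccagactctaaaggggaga
HERC5: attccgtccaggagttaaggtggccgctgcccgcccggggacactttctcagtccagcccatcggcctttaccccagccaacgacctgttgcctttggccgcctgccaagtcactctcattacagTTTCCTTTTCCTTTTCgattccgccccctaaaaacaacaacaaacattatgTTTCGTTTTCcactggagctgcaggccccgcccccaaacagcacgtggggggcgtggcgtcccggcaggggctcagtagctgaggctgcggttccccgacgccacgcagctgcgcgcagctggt
HERC6: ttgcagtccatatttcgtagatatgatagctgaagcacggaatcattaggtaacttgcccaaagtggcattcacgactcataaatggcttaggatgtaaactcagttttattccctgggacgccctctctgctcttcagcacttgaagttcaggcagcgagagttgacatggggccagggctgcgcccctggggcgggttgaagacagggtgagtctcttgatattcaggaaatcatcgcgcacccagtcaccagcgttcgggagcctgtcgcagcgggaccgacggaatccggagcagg
DDX60 had 2 matches, BST2 2 that overlap, HERC5 3, some overlapping and all on the opposite strand, and HERC6 none in this window. Of the list's 29 genes with a promoter in the table, 23 had a match in at least 1 promoter, as had 13 of the 17 that were called higher, beside 4.38% of all 27305 genes in the table. Over single promoters, 28 of the list's 40 had a match (70%), and 1255 of all 35116 of that length (3.57%). A match is a run of letters and was not tested as a binding site.

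**Figure D3:**
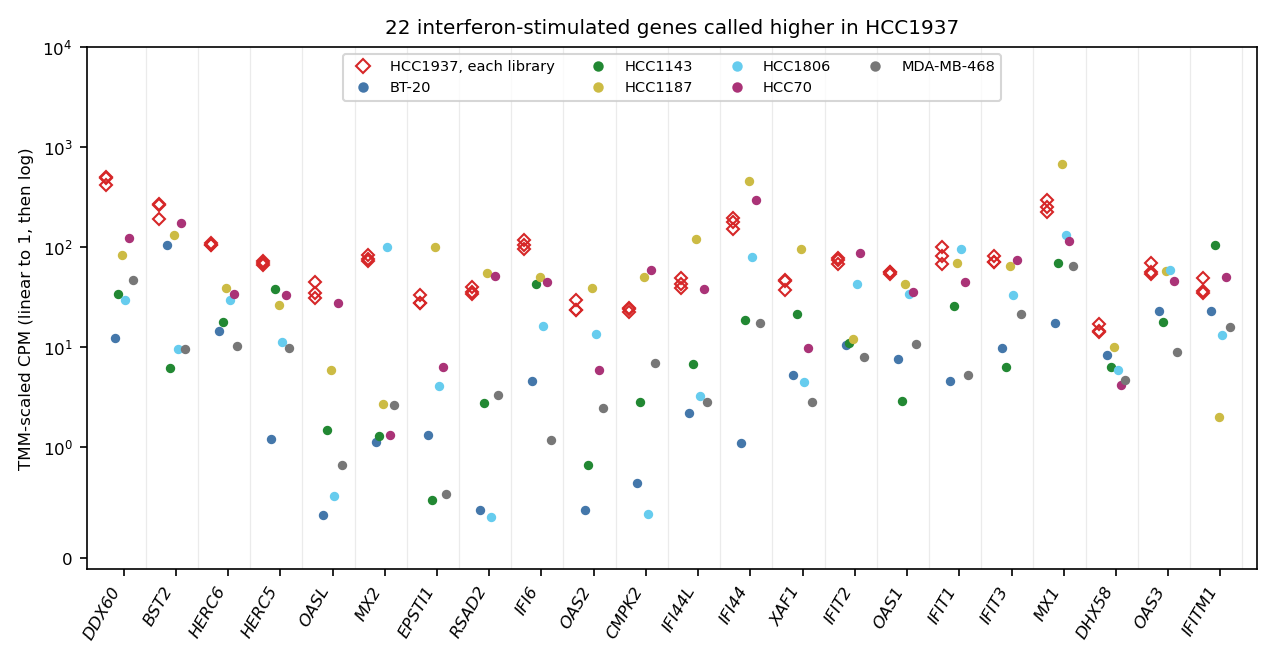
The 22 interferon-stimulated genes called higher in HCC1937, in TMM-scaled CPM on an axis that is linear up to 1 and logarithmic above. Open red diamonds are the 3 HCC1937 libraries and filled circles the mean of each other line. DDX60 stands clear of all 6 lines, while MX1, IFI44 and XAF1 have at least 1 line above HCC1937.

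HLA class I genes were also higher. HLA-C had 74.3, 72.7 and 62.3 CPM in HCC1937 against 0, 0.495 and 1.42 CPM as the lowest, median and highest elsewhere, and HLA-B 241, 258 and 220.4 CPM against 0.441, 2.42 and 277 CPM. These genes are near copies of each other and differ between alleles, so how the counting shared out their reads makes single HLA values uncertain. Of the class I list of 20, 11 were tested, HLA-C of them passing the filter on low counts only through HCC1937, and 6 were higher and none lower, including NLRC5, their transcriptional activator (1.30 ± 0.15), and the peptide-trimming ERAP2 (1.77 ± 0.09), whereas the shared light chain gene B2M had 389, 289.9 and 251 CPM against a median of 252 CPM and did not pass (adjusted p = 0.207). Against the lines of the same medium and runs, ERAP2 (0.59) and NLRC5 (0.90) were under the fold threshold. Of 12 class II genes 6 were tested and 4 were higher, led by the invariant chain gene CD74 with 21.9, 33.5 and 29.7 CPM against a median of 4.05 CPM, though another line reached 275 CPM.

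Of 20 tested cytokines and chemokines, 9 were higher and none lower, and of these IL6 passed the filter on low counts only through HCC1937. The inflammasome cytokine IL18 had 87.9, 109 and 88.4 CPM in HCC1937 against 0.816, 21 and 218 CPM, and the macrophage growth factor CSF1 25, 26.5 and 27.9 CPM against a median of 4.37 CPM. IL6 lay above all other libraries, but at only 1.91, 2.3 and 2.34 CPM. CX3CL1 was called higher (1.01 ± 0.26) although its 5.15, 5.42 and 9.45 CPM lay under the median of 13.5 CPM elsewhere, since some lines were near 0. Of 15 NF-kB genes 5 were higher and none lower: NFKB1, a subunit of the factor, had 142, 123 and 122 CPM against 30.6, 63.4 and 83.2 CPM (1.20 ± 0.07, adjusted p = 5.01e-14), and the others were its targets TNFAIP3, BIRC3, ICAM1 and TRAF1, at 2.27, 2.07, 1.72 and 1.53 log2 units. NFKB1 came to 0.89, under the fold threshold, against the lines of the same medium and runs. Of 4 tested APOBEC3 cytidine deaminases, APOBEC3B and APOBEC3C were higher, by 1.51 and 2.29.

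Kallikrein-related peptidases, secreted serine proteases encoded in 1 cluster on chromosome 19, were the list with the largest median, 3.31 log2 units. All 6 of the 15 that had enough counts to be tested were higher, a filter that the 9 others did not pass. KLK5, the protease that starts shedding of the outer skin, had 886, 922 and 889 CPM in HCC1937 against 4.9, 199.5 and 304 CPM as the lowest, median and highest of the 18 others (2.95 ± 0.08, adjusted p = 1.89e-20). KLK6 had 149, 171 and 216 CPM against 0.944, 6.27 and 29.5 CPM (4.81 ± 0.10), and KLK10 150.4, 188 and 253 CPM against 0, 6.32 and 51.8 CPM (5.40 ± 0.16). With KLK8, at 8.24, 7.45 and 7.86 CPM, these 4 had no overlap with any other library. KLK7 overlapped with another line, at 58.3, 86.3 and 74 CPM against a highest of 85.2 CPM, and KLK11 was low throughout.

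Keratins went both ways. KRT15, a keratin of the basal layer and its progenitors, reached 1304, 1177 and 923 CPM in HCC1937, and its highest value elsewhere was 183 CPM (4.46 ± 0.12, adjusted p = 3.35e-21). KRT5, the main type II keratin of basal cells, was instead lower, with 58.4, 54.2 and 55.7 CPM against 6.2, 328 and 2492 CPM (-2.41 ± 0.12, adjusted p = 1.69e-15), as were KRT6A and KRT6B, by -3.02 and -4.88. Their type I partner KRT16 was higher, with 726, 667 and 497 CPM against a median of 52.6 CPM, although a line reached 3360 CPM. Of the 21 basal keratinocyte markers 12 were higher and 4 lower. Higher were also the laminin chains of hemidesmosomes, LAMA3 and LAMB3, by 2.08 and 1.46 log2 units, the hemidesmosomal collagen gene COL17A1 by 3.36 and the basal lineage factor gene TP63 by 1.80, with 17.2, 17.9 and 18.6 CPM. The receptor gene EGFR was lower, with 83.3, 107 and 124 CPM against 51.1, 192 and 2479 CPM, the last from the EGFR-rich line MDA-MB-468; without that line the difference was -0.78, and among the lines in RPMI 1640 it was -0.27, both short of a call. The desmosomal DSG3 and DSC3 were called higher by 1.33 and 1.17, but DSG3 lay under the median of the other libraries and both turned round among the lines in RPMI 1640, to -1.14 and -0.48.

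Genes of stratified differentiation were higher for 7 of 15 tested and lower for 2, and of these the cornified envelope gene SPRR3, called higher, passed the filter on low counts only through HCC1937. KRT13, a keratin of mucosal epithelium, had 103, 93.4 and 82.5 CPM in HCC1937 against a median of 0.78 CPM, and KRT4, its partner, 201, 173 and 156 CPM against 80.4 CPM, while 1 or more lines exceeded HCC1937 for both. LCN2, an iron-siderophore binding lipocalin, had 118, 304 and 259.98 CPM against a highest of 61.7 CPM elsewhere, and PI3, the elastase inhibitor elafin, 50.2, 58.5 and 79 CPM against 26.5 CPM. Of 12 tested serpins of clade B, 4 were higher and 5 lower. Lower were SERPINB3, SERPINB4, SERPINB8, SERPINB11 and SERPINB13, higher SERPINB2, SERPINB5 and SERPINB7 of the same chromosome 18 cluster and SERPINB9 of chromosome 6. SERPINB9 came to 0.62, under the fold threshold, against the lines of the same medium and runs. SERPINB5, known as maspin, had 131, 131 and 123 CPM against a median of 120.1 CPM. Of 14 tested S100 genes 4 were higher and 1, S100A10, lower, with 35.5, 41.3 and 43.8 CPM against 125, 187 and 527 CPM (-2.40 ± 0.12, adjusted p = 1.35e-15).

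The mesenchymal markers went both ways, 10 of 22 higher and 7 lower, with a median of 0.17. VIM, the vimentin filament gene, had 2.06, 2.57 and 2.26 CPM in HCC1937 against a median of 38.5 and a highest of 1590 CPM, and N-cadherin (CDH2), fibronectin (FN1), TWIST1, TWIST2, the collagen crosslinker LOX and the membrane linker MSN were lower as well. Above the range of all other libraries were, besides AXL, the osteoblast-type cadherin gene CDH11 (41.5, 41.8 and 43.6 CPM against a highest of 5.72), the matricellular SPARC (13.4, 14.1 and 13 CPM against 2.53), the follistatin-like FSTL1 (315, 319 and 304 CPM against 290.3) and the caveola coat gene CAVIN1 (483, 469 and 450.4 CPM against 401). Of 24 epithelial markers 6 were higher and KRT19 alone lower, and the splicing factor gene ESRP1 lay above the other libraries with 339.7, 376 and 403 CPM, at 0.94 ± 0.07, under the fold threshold. Claudins, cadherins and desmosomal genes gave 5 higher and 4 lower of 21, with the tight junction gene CLDN1 at 99.2, 126 and 166 CPM against a highest of 66.2 CPM.

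Of 17 tested luminal markers 4 were higher and 2 lower. The estrogen receptor gene ESR1 had 19.9, 20.9 and 23.6 CPM in HCC1937 against 4.04, 10.3 and 15.3 CPM (1.24 ± 0.11, adjusted p = 5.24e-10), so the libraries did not overlap but all levels were low. The melanosome transport gene MLPH was lower, by a fitted -2.01. Luminal progenitor and alveolar genes gave 3 higher and 5 lower of 10 tested, with a median of -1.26. PROM1, which encodes a surface antigen of stem cells, had 0.883, 0.135 and 1.003 CPM against a median of 191 CPM, and the receptor gene KIT 0.736, 0.542 and 0.836 CPM against 33.9 CPM, and BT-20 was near HCC1937 for both. MFGE8, a milk fat globule protein, lay below every other library, with 2.36, 2.44 and 3.68 CPM against a lowest of 4.88 CPM. ELF5, the factor of alveolar fate, was higher, with 44.7, 32.4 and 33.9 CPM against a median of 2.65 CPM.

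**Figure D4:**
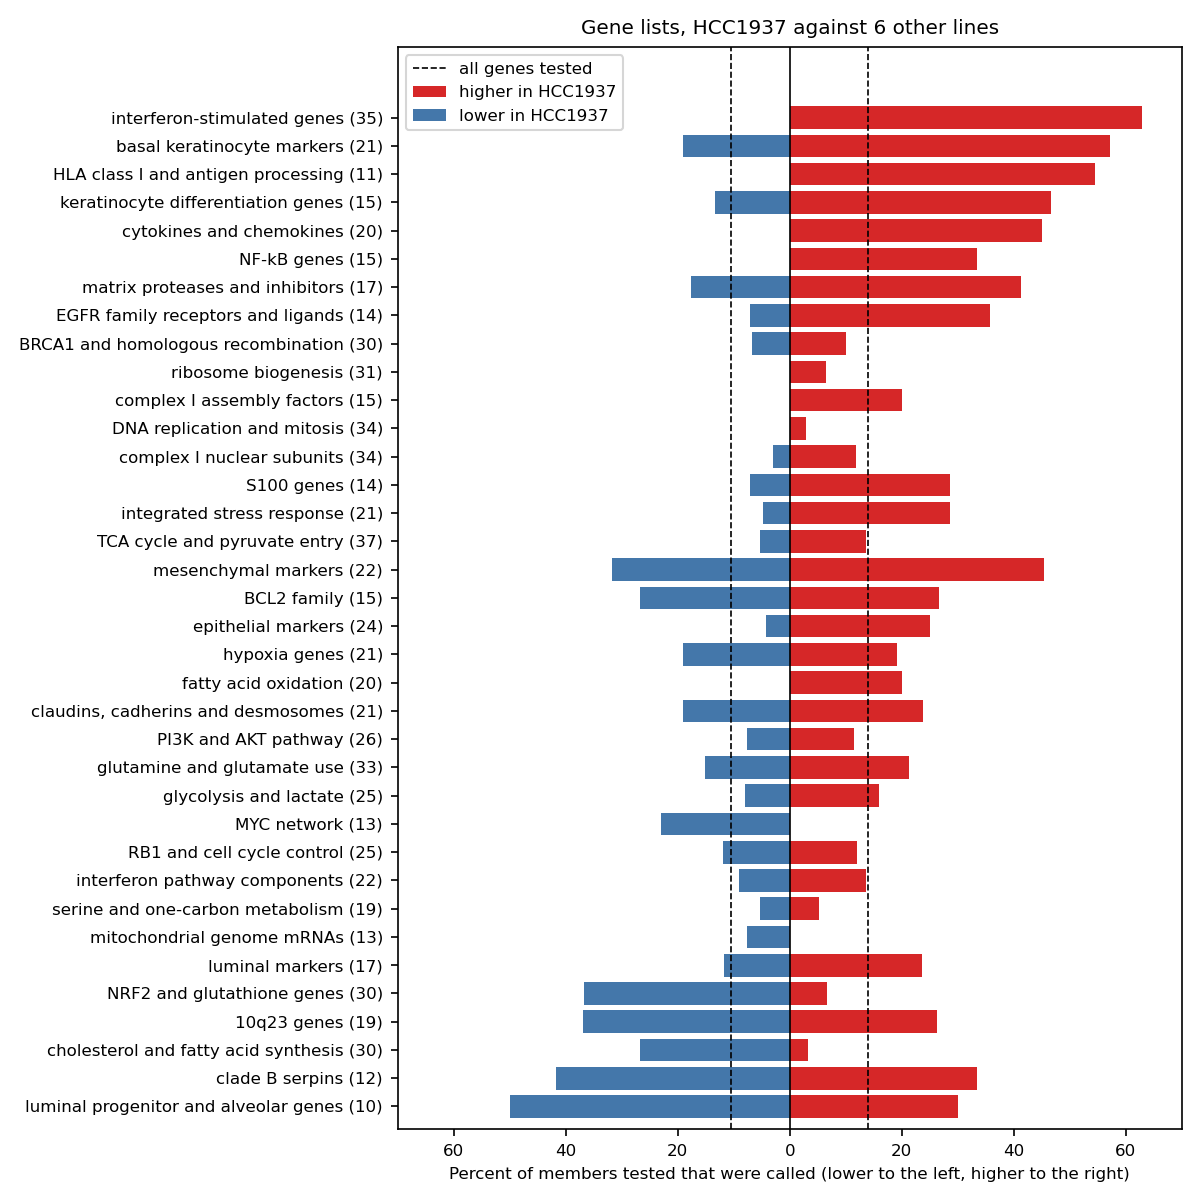
Share of the tested members of each list called higher (red, to the right) or lower (blue, to the left) in HCC1937, for lists with at least 10 members tested, whose number is in brackets, ordered from top to bottom by falling median difference. Dashed lines mark the shares over all genes tested, 14% higher and 10.5% lower. The interferon-stimulated genes reach 62.9% higher, and the luminal progenitor genes 50% lower.

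The metabolic lists mostly stayed near these shares. Of 33 tested genes of glutamine and glutamate use, 7 were higher and 5 lower, with a median of 0.03. Besides GLUD1 and GLUD2, the lower ones were the glutamate and neutral amino acid transporters SLC1A1, SLC1A2 and SLC1A4, of which SLC1A4 had 14.7, 15.3 and 15.5 CPM against a lowest of 16.1 CPM. SLC1A4 (-0.63) and SLC1A2 (-0.34) came under the fold threshold against the lines of the same medium and runs. The transporters SLC1A3 and SLC1A6 were higher, with 137, 132 and 125 and 34, 29 and 28.9 CPM against medians of 28.5 and 0.593 CPM. Of the transaminase genes, which pass on the amino group of glutamate, GOT2, PSAT1 and OAT were higher. The mitochondrial aspartate transaminase gene GOT2 had 249, 269.8 and 269 CPM against 54.2, 154 and 219.5 CPM (1.09 ± 0.08, adjusted p = 2.27e-12). The serine pathway transaminase gene PSAT1 had 242, 265 and 339 CPM against 73.2, 128 and 269.8 CPM (1.07 ± 0.09, and 0.92 without HCC1937 replicate 3, under the threshold), and the ornithine transaminase gene OAT 699, 529.8 and 514 CPM against a median of 278 CPM (1.43 ± 0.08). GFPT2, which begins hexosamine synthesis from glutamine, had 35.6, 34.5 and 32.1 CPM against a highest of 24.2 CPM.

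Of 34 tested nuclear subunits of respiratory complex I, 4 were higher and 1 lower, with a median of 0.28. NDUFA10 was the lower one, with 65.1, 58.9 and 50.6 CPM in HCC1937 against 111, 139 and 238 CPM (-1.33 ± 0.10, adjusted p = 1.1e-11), and no library overlapped. NDUFA8 had 80.2, 71.6 and 68.5 CPM against 22.9, 29.8 and 48.1 CPM, and NDUFB9, NDUFC1 and NDUFS4 were higher by 1.26, 1.02 and 1.21. Among the lines in RPMI 1640, NDUFB9 (0.87), NDUFC1 (0.99) and NDUFS4 (0.96) came under the fold threshold. Of 15 assembly factors TIMMDC1, FOXRED1 and NDUFAF2 were higher and none lower, and of the 13 mitochondrial genome mRNAs MT-ND3 alone was lower (-1.01 ± 0.33) and none higher, in libraries where mitochondrial reads were few, 0.0502 to 0.341% of counts. Of 37 TCA cycle and pyruvate genes 5 were higher and 2 lower, the malic enzyme gene ME2 (22.1, 32.8 and 30.3 CPM against a lowest of 33.6) and the pyruvate dehydrogenase kinase gene PDK3. Of 25 tested genes of glycolysis and lactate 4 were higher and 2 lower: the phosphofructokinase genes PFKP and PFKL lay below all other libraries, with 54.6, 49.4 and 39 and 70.4, 52.7 and 54.8 CPM against lowest values of 89.3 and 77.8 CPM, and lactate dehydrogenase LDHB had 1470, 1257 and 1089 CPM against a median of 388 CPM. PFKL came to -0.90, under the fold threshold, against the lines of the same medium and runs. Fatty acid oxidation gave 4 higher and none lower of 20, with the electron carrier gene ETFB at 145, 125 and 94.5 CPM against a highest of 68.7 CPM, and of 19 serine and one-carbon genes PSAT1 was higher and CBS lower. The other higher oxidation genes came under the fold threshold in some fits. These were ACADS (0.38) and ECHS1 (0.90) among the lines in RPMI 1640 and CPT1A (0.51) without HCC1187.

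A pair of lists tilted down. Of 30 genes of cholesterol and fatty acid synthesis, 8 were lower and 1 higher, with a median of -0.69 and 26 negative differences, though the HCC1937 mean was higher for 15 of the 30 against BT-20 and for 2 to 12 against the 5 other lines. Among the lower were the mevalonate pathway enzymes MVK, IDI1 and FDPS and the sterol enzymes FDFT1, LSS and CYP51A1. IDI1, an isomerase of isoprenoid units, had 130.4, 110.1 and 109 CPM in HCC1937 against 85.1, 362 and 803 CPM (-1.46 ± 0.10, adjusted p = 1.39e-12). The exception was the fatty acid elongase gene ELOVL6, with 47.7, 61.1 and 62.2 CPM against a highest of 29.3 CPM. Of 30 genes of the NRF2 response and glutathione, 11 were lower and 2 higher, with a median of -0.54 and 24 negative differences. Line by line, the HCC1937 mean was higher for 21 of these 30 against HCC1187 and for 6 to 11 against each of the 5 other lines. HMOX1, the heme-degrading oxygenase gene, had 5.45, 4.06 and 5.43 CPM against 3.93, 33 and 63.2 CPM (-2.36 ± 0.19), and the pentose phosphate genes PGD and TALDO1 were lower by -1.36 and -1.23 on the log2 scale, given as fitted. The aldo-keto reductase genes AKR1C1, AKR1C2 and AKR1C3 were lower too, though their sequences are so alike that reads may be shared. AKR1B10, at -1.80, came to 0.06 against the lines of the same medium and runs. NQO1, the best known NRF2 target, had 1101, 1135 and 989 CPM against a median of 1065 CPM and did not pass (adjusted p = 0.262). GPX1, a glutathione peroxidase, was higher (2.51 ± 0.17).

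In the list of homologous recombination 3 of 30 were higher and 2 lower. BRCA1 had 181, 188 and 190.3 CPM in HCC1937 against 62.3, 95.8 and 139 CPM as the lowest, median and highest of the 18 others, so every HCC1937 library lay above all others, and the difference of 0.94 ± 0.07 (adjusted p = 2.06e-11) was just under the fold threshold. Counts of a gene do not show whether its transcript is intact. BARD1, the partner of BRCA1, lay below all other libraries, with 65.8, 60.8 and 69 CPM against 90.6, 127 and 205 CPM (-0.89 ± 0.08). FANCI, a DNA crosslink repair protein, was lower, with 55.3, 55.9 and 53.3 CPM against 124, 205 and 313 CPM (-1.81 ± 0.09, adjusted p = 4.02e-15), and SHLD2 was the other lower member. XRCC2, a strand exchange factor of recombination, had 125, 130.01 and 120.5 CPM against a highest of 82 CPM (1.46 ± 0.08), and RBBP8, which starts end resection, and RAD52 were higher by 1.17 and 1.24. RBBP8 (0.98) and RAD52 (0.99) came just under the fold threshold against the lines of the same medium and runs.

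RB1 had 41.5, 50.4 and 55.1 CPM in HCC1937 against a median of 75.7 CPM elsewhere, where MDA-MB-468 had a line mean of 1.17 CPM, and the difference of 0.33 ± 0.12 was under the fold threshold. Of the 25 tested genes of cell cycle control, 3 were higher, CDKN2A, CDKN2B and CCND2, the last tested only through its counts in HCC1937, and 3 were lower, among them E2F8 and the inhibitor gene CDKN2C. CDKN2A had 59.6, 70.6 and 84.5 CPM against 0, 19.6 and 199 CPM, and some of the lines had no count of it. Of 34 genes of replication and mitosis MKI67 alone was called, at 1.05 ± 0.16, and of 31 tested genes of ribosome biogenesis GAR1 and BOP1 were higher and none lower. MYC had 91.4, 103 and 101 CPM against a median of 83 CPM (0.32 ± 0.11), and of its network of 13 genes MYCN, MYCL and MXI1 were lower.

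Of 15 tested BCL2 family genes 4 were higher and 4 lower. MCL1, an anti-apoptotic member, had 192, 182 and 177 CPM in HCC1937 against 246, 604 and 1317 CPM (-1.74 ± 0.08, adjusted p = 2.1e-16), and the pro-apoptotic BMF and BOK lay below all other libraries as well. BCL2 was lower by a fitted -2.44 with 1.32, 2.57 and 2.01 CPM, and its anti-apoptotic relatives BCL2L1 and BCL2L2 were higher, by 1.48 and 1.11. In the list of PI3K and AKT signalling, 3 of 26 tested were higher and 2 lower. INPP4B, a phosphatase of phosphoinositides, had 215, 223 and 192 CPM against 2.77, 37.8 and 111 CPM (3.04 ± 0.10, adjusted p = 2.33e-19), with no overlap. The insulin receptor substrate genes split, IRS2 higher by 1.53 and IRS1 at -1.09.

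Of 14 tested EGFR family receptors and ligands, 5 ligand genes were higher, and EGFR was lower, a call that rested on MDA-MB-468. EREG, epiregulin, had 91.8, 90.1 and 101 CPM against 0, 3.36 and 87.7 CPM (4.95 ± 0.11, adjusted p = 1.35e-22), HBEGF 24.4, 19.8 and 18.7 CPM against a highest of 16.2 CPM, and AREG, BTC and NRG1 were higher by 2.19, 1.54 and 2.66. Matrix proteases and inhibitors gave 7 higher and 3 lower of 17. The lower ones were the proteases MMP1, MMP7 and MMP13, and all but 1 of the higher ones were inhibitors, among them TIMP2, TIMP3, CST6, CSTA and SLPI, with the urokinase gene PLAU the exception at 27.1, 25.7 and 25.1 CPM. The integrated stress response had 6 higher and 1 lower of 21, with stanniocalcin STC2 at 116, 111 and 109 CPM against a highest of 103 CPM, and the hypoxia list 4 higher and 4 lower of 21, with the HIF partner gene ARNT at 16.8, 17.5 and 22.2 CPM against a lowest of 41.3 CPM. Of 4 tested metallothioneins MT1E was higher, and of 8 tested cancer-testis genes MAGEA4 was lower and none higher.

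Some of the lower genes lay together on chromosomes. Over the protein-coding genes of each chromosome, the median difference of HCC1937 from the mean of the 6 lines was lowest on chromosome 18, at -1.03 log2 units over 221 genes, with 48.9% called lower and 5.88% higher, beside 10.6% and 12.8% over all protein-coding genes of chromosomes 1 to 22 and X. Against single lines the chromosome 18 median was -0.27 for BT-20, -0.283 for HCC1806 and -0.943 to -1.53 for the other 4, so it depended on the line. In windows of 10 Mb with at least 20 genes, the 5 windows from 30 to 80 Mb of chromosome 18 had medians of -1.13 to -1.63, and the 3 windows from 0 to 30 Mb had -0.523, -0.319 and 0.356. The lower genes ME2, BCL2, TCF4, FHOD3, TNFRSF11A, DSG1 and DSG2 and all 5 lower serpins lay in the 5 windows, as did SERPINB2, SERPINB5, SERPINB7, DSC3 and DSG3, which were called higher. Chromosome 21 was next lowest, with a median of -0.685 over 141 genes, and held CBS, PFKL, LSS, CLDN8 and IFNAR2 among the lower members, but also MX1 and MX2 among the higher.

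Windows elsewhere held other members. The last windows of chromosome 2, 230 to 240 and 240 to 250 Mb, had medians of -1.01 and -1.56 and held AGAP1, NDUFA10 and BOK. The window at 80 to 90 Mb of chromosome 15, with FANCI and MFGE8, had a median of -1.05. On chromosome 1, the windows at 140 to 150 and 150 to 160 Mb had medians of -1.48 and -0.635, with 68.9% and 34.9% of their genes lower. At the high end, windows of chromosomes 3, 8, 10 and 13 had medians of up to 1.36, among them 190 to 200 Mb of chromosome 3 at 1.20, with CLDN1, 180 to 190 Mb at 0.879, with TP63, and 120 to 130 Mb of chromosome 10 at 1.17, with BTBD16 and OAT. Expression along a chromosome does not count its copies, and copy number was not analysed here.

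**Figure D5:**
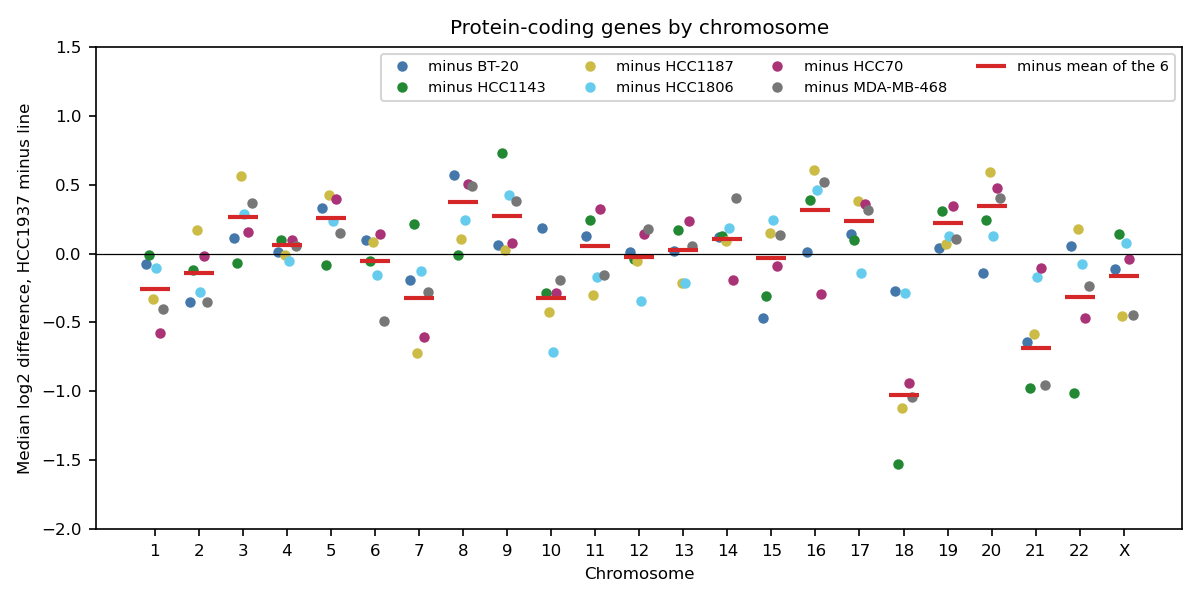
Median log2 difference of protein-coding genes on each chromosome. Red bars give HCC1937 minus the mean of the 6 lines from the fit, and circles HCC1937 minus each line, from line means with 0.5 CPM added. Chromosome 18 lies lowest, with a bar at -1.03 and circles between -0.27 and -1.53.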

How the data were processed

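Total RNA of each cell line was depleted of ribosomal RNA and made into ScriptSeq libraries, per the labels' protocols. Per the submitters' processing notes, the tools were bcl2fastq 2.20.0.422, FastQC, MultiQC, Trimmomatic, STAR and featureCounts, with the build GRCh38.p12; the sources used here do not give their roles, settings or use of strand. The authors deposited raw counts per gene for 45 libraries, and all columns were matched to samples by name. Of 64485 gene identifiers, 58275 (90.4%) were given names, types and positions from GENCODE 29, and the rest held 0.0779% of counts.

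The 21 libraries of 7 lines, with totals of 4587650 to 14653677 counts, were fitted with edgeR 4.0.16 in R 4.3.3, with 1 term per line, TMM scaling and filterByExpr (minimum count 10, minimum total 15), which left 17772 genes. The contrast was HCC1937 minus the mean of the 6 lines on the log2 scale, and a call needed a Benjamini-Hochberg adjusted p at or below 0.05 over all genes tested and a log2 difference of at least 1. The standard error is the difference divided by the square root of F. In a second fit the counts of each line were summed and tested as 1 unit against 6, by edgeR and DESeq2 1.42.0. Counts were simulated for the same genes and libraries, from 1 profile shared by all lines and 1 common spread. Changes of 1.5 and 2 log2 units were put into some well-counted genes of HCC1937, and all were called. The simulated lines did not differ otherwise, so this checked the procedure and not recovery of low-count genes or among lines that differ. By the labels, replicate numbers 1 to 3 are runs 3 to 5 in 6 of the lines. They do not match in HCC1143, so pairing by number follows shared runs in the 6 lines only. Deviations from line means correlated at -0.146 to 0.393 between HCC1937 and the same number in the 5 others of these lines. The correlation was over 0.1 in 8 of 15 pairs. Different numbers gave an overlapping range of -0.34 to 0.182. The same number gave positive values throughout in HCC1187, HCC1806 and HCC70. It gave 0.0745, -0.0491 and -0.119 in BT-20 and -0.00142, 0.157 and -0.146 in MDA-MB-468, which were grown in other media. Shared runs were thus not separated from the medium, and the cause was not tested.

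Named genes were the 12 largest differences in each direction among protein-coding genes called, outside the range of the other libraries and at a mean of at least 20 CPM, up to 6 called members of each of 44 lists, with further members of lists such as 10q23, interferon and kallikreins, silent genes, and genes the line is known for. Members and lists were chosen with earlier results of these data known. Lists were described by counts and medians, with no set test. Some genes that the rule names are not reported here. Genes with too few counts, among them many HLA genes, were left out of the tests. Intervals are exact at 95% and cover counting error only.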

Additional observations from a re-analysis of the deposited data

How the results depend on the processing

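Under other settings than the fold threshold (scaling by DESeq2 size factors or a stricter set of genes, DESeq2, no filter, all 45 libraries, run terms, lines of 1 medium, and leaving out a line or a library), the genes called higher numbered 2307 to 3674 and those called lower 1717 to 2105, all within 1.5 times the values reported. Leaving out each of the 21 libraries in turn gave 2416 to 2702 higher and 1745 to 1978 lower. With no minimum fold change, 5748 genes were higher and 4461 lower. With the replicate block, 2474 were higher and 1857 lower, 2465 and 1840 of them shared with the fit without the pairing. Taking each line as 1 unit, DESeq2 called 26 higher and 24 lower where edgeR called none, and edgeR still called 0 in either direction with replicate 1, 2 or 3 left out of the sums. The count of 32 silent genes came to 12 at a limit of 0.2 CPM, 65 at 1 CPM, and 9 where all 6 lines had to express the gene; the cause of the first pair is the limit itself. Directions turned round for 5 named genes: DSG3 (-1.14) and DSC3 (-0.48) among the lines in RPMI 1640, DSC3 also among those of the same runs (-0.0152) and without BT-20 (-0.18), and, among the lines of the same medium and runs, IFI44 (-0.33), SAMD9 (-1.10, not called in the reported fit) and AKR1B10 (0.0598); the cause was not tested. Of 252 named genes called, 177 kept their call in all 37 settings tried on them and 75 lost it in at least 1, 7 of these under a scaling, DESeq2 or block; the 24 leading genes lost none. Leaving out 1 particular library ended the call of PSAT1 (0.92 without HCC1937 replicate 3), IRS1 (-0.92) and KDR (-1.09, both without HCC1937 replicate 2), GSTP1 (-8.79 without BT-20 replicate 1), MAGEA4 (-2.52 without HCC1143 replicate 2) and SLC1A1 (-3.71 without HCC1806 replicate 2). Any of several libraries did so for GAR1, MKI67, MT-ND3, MT1E, MYCN (-4.32 without BT-20 replicate 2 and -4.45 without HCC1806 replicate 3), NDUFC1 and SLC1A2, and SLC1A2 also lost its call with the replicate block (-0.98). Other scalings shifted the median of all genes by -0.0125 and -0.0108 log2 units. Genes under about 3 counts summed over a line's libraries could not be told from absent at this depth.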

Other observations

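When the summed libraries of HCC1937 were compared with the 6 lines as units, 1 against 6, DESeq2 gave adjusted p under the threshold for some genes outside the lists. The fitted values were positive for IL7R, the interleukin-7 receptor chain (log2 difference 4.64, adjusted p = 0.00162), TGM2, a protein-crosslinking transglutaminase (4.74, adjusted p = 0.00301), the calpain gene CAPN8 (4.66, adjusted p = 0.000145), CLTRN, collectrin, a kidney amino acid transport factor (4.60, adjusted p = 0.00168) and the zinc finger gene ZNF671 (5.22, adjusted p = 1.14e-05). The fitted value was negative for the kinase gene NEK3 (-4.43, adjusted p = 0.00453). These genes were named after their values were seen, and edgeR called none of them in the same comparison, where its smallest adjusted p was 0.0902, so they are given as values only.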
